A study of Homo sapiens with 16 samples.

Results

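The comparison described here asks, gene by gene, whether all-trans retinoic acid (ATRA) changed expression by the same amount with and without entinostat in MDA-MB-231, a widely used cell line of human triple-negative breast cancer. It used all 16 of the 16 Illumina BeadChip arrays of the series. They form 8 groups of 2 arrays: entinostat with ATRA and doxorubicin, entinostat with ATRA, entinostat with doxorubicin, entinostat, ATRA with doxorubicin, ATRA, doxorubicin, and DMSO as the vehicle. Entinostat was given at 2.5 µM, ATRA at 1 µM and doxorubicin at 0.2 µM, each for 48 h. Nothing else separated the groups in the labels, and every array came from the same line. The interaction of a gene was the ATRA effect with entinostat minus the ATRA effect without it, on the log2 scale. Each effect was the mean of 4 arrays with ATRA less the mean of 4 without, 2 of them with doxorubicin and 2 without on either side. A positive interaction means that the ATRA effect was higher when entinostat was present. That can be a larger rise, a smaller fall, or a rise in place of a fall. No measured value entered the choice of the arrays.

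Entinostat inhibits class I histone deacetylases, the enzymes that remove acetyl groups from histones at repressed genes. ATRA is the ligand of the retinoic acid receptors, which sit on DNA as heterodimers with retinoid X receptors. Without ligand these dimers hold corepressors such as NCOR1 and, through them, HDAC3, and ligand exchanges the corepressors for coactivators with acetyltransferase activity. The pair of drugs could thus act on the same genes, which is the reason to ask whether their effects add on the log2 scale. Binding and acetylation were not measured here. Doxorubicin poisons topoisomerase II.

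Between 11402 and 12748 genes were detected per array, and 17126 genes, detected on at least 2 arrays, were tested. Replicates of a group had correlations of 0.981 to 0.991 over genes, and genes are not independent replicates. The third principal component (6.33% of the variance) parted arrays numbered 1 from those numbered 2, and the replicate number entered the model as a block. The doxorubicin replicates stood furthest apart, with 183 genes differing by more than 1 on the log2 scale, against 10 to 122 in the other groups. Of the markers fixed for the line, VIM had a mean signal of 13780, and CD44, AXL, CAV1 and S100A4 were detected on 16 arrays. ESR1 and PGR were detected on 0 arrays and CDH1 on 1. EGFR and ZEB1 were detected on 3 and 5 arrays, and the epithelial marker EPCAM was detected on 16 arrays with a mean signal of 201. CLDN3, fixed like EPCAM as low or absent, was detected on at least 2 arrays and so was tested. Among markers of other cell types, PTPRC and CD3E were detected on 0 arrays. CD68 and CD14 had mean signals of 690 and 353. The labels do not say that replicates were separate cultures, so p-values cover only the differences between these arrays, possibly technical ones, and the number of arrays limits the precision.

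No gene passed the test of the interaction. Limma called 0 of 17126 genes (0%) at a Benjamini-Hochberg adjusted p below 0.05, and the lowest adjusted p was 1.00. At an unadjusted p below 0.05 there were 479 genes (2.8%), 225 above 0 (1.31%) and 254 below 0 (1.48%). The interactions of all genes had a median of 0.00 and an SD of 0.15 on the log2 scale, with the middle 90% between -0.24 and 0.24. The median standard error (SE) was also 0.15. The median 95% confidence interval reached 0.31 to either side of the estimate. For 17046 genes (99.5%) the interval lay within 1 log2 unit of 0, and 1 log2 unit is a doubling. With 4 arrays in each mean, a single gene at the median SE would have needed an interaction of 1.07 to pass on its own. The interaction of SDPR alone was larger than 1 in size, and 61 genes exceeded 0.5. Genes with a smaller SE would have needed less, and the missed threshold does not show that the ATRA effects were equal.

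Few genes were called for an ATRA effect itself, and all of those called ran upward. Limma called 4 genes (0.0234% of those tested) for ATRA with entinostat, 4 higher and 0 lower, and 11 genes (0.0642%) for ATRA without entinostat, 11 higher and 0 lower. At an unadjusted p below 0.05 there were 814 genes with entinostat (4.75%), 396 higher (2.31%) and 418 lower (2.44%). Without entinostat there were 724 (4.23%), 387 higher (2.26%) and 337 lower (1.97%). DHRS3, C9ORF169 and TINAGL1 were called in both, which is 75% of the first set and 27.3% of the second. ELF3 was called with entinostat, and TXK, LOC731486, IGFBP6, SMOX, NRIP1, CPA4, TGM2 and C4BPB were called without it. None of these 12 genes passed the test of the difference between the settings. All 11 genes called without entinostat were also higher with ATRA on the entinostat arrays, each at an unadjusted p below 0.05. Of the 12 interactions, 9 were below 0 and 3 above, and 6 of the 12 intervals held 0. Genes called on the arrays without entinostat share those arrays with the interaction, so a size that ran high there also lowers the interaction. These counts were open to single arrays: for ATRA without entinostat limma called 44 genes without doxorubicin replicate 2, 18 without doxorubicin replicate 1, 7 without ATRA with doxorubicin replicate 2 and 6 without DMSO replicate 1. For ATRA with entinostat it called 11 without either doxorubicin replicate and 9 without replicate 2 of entinostat with ATRA. With the background estimated from the detection p-values it called 2 genes with entinostat, C9ORF169 and TINAGL1, and 0 without it (658 at an unadjusted p below 0.05), so DHRS3 and ELF3 lost their call. Under that setting the log2 ATRA effects were 0.71 with entinostat and 0.67 without it for DHRS3, 1.10 and 0.37 for C9ORF169, and 0.19 and 0.15 for TINAGL1. ELF3 was at 0.42 with entinostat. Without entinostat CPA4 was at 0.19, NRIP1 at 0.14, SMOX at 0.12 and TXK at 0.11, all well under the sizes given for these genes in what follows.

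**Figure D1:**
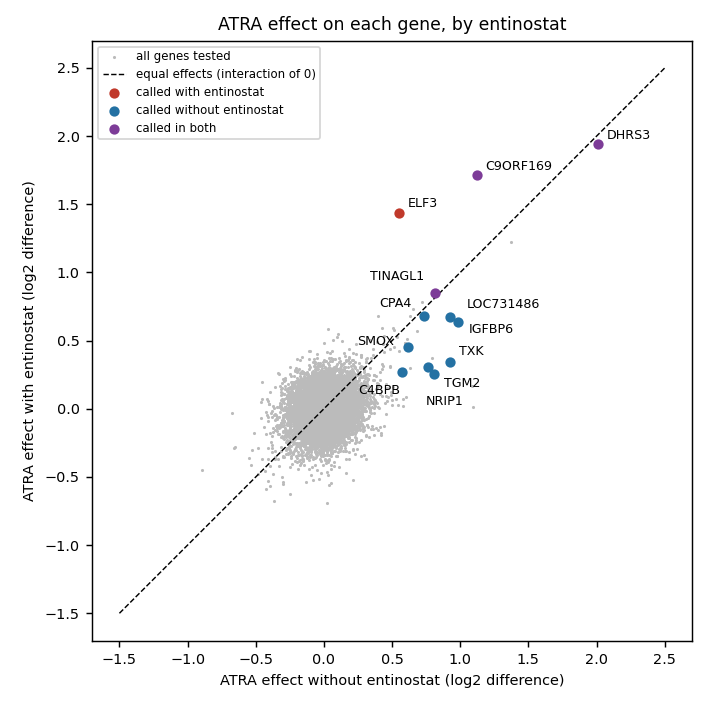
ATRA effect on each tested gene, with entinostat (vertical axis, log2 difference) and without it (horizontal axis, log2 difference). Grey points are all 17126 genes, coloured points the 12 genes called in either setting, and the dashed line marks an interaction of 0. DHRS3 and TINAGL1 lie close to the line, ELF3 and C9ORF169 above it, and TXK, TGM2 and NRIP1 below it.

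DHRS3 encodes a retinaldehyde reductase that returns retinaldehyde to retinol and is induced by retinoic acid. Its log2 level was 8.61 and 9.56 on the arrays with entinostat and ATRA, against 6.48 and 6.72 with entinostat. It was 9.15 and 9.20 with ATRA, against 6.46 and 6.66 with DMSO. With doxorubicin as well, it was 8.27 and 8.72 with both drugs and 6.73 and 7.46 with entinostat. On the other doxorubicin arrays it was 8.23 and 8.25 with ATRA, against 7.27 and 6.40 without. All 8 arrays with ATRA lay above all 8 without it, whichever other drug was present. ATRA raised DHRS3 3.84-fold with entinostat (log2 1.94, SE 0.20, adjusted p = 0.00048) and 4.03-fold without it (log2 2.01, adjusted p = 0.00107). The interaction was -0.07, with a 95% interval of -0.68 to 0.54.

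ELF3, an ETS-family transcription factor of epithelial cells that retinoic acid is known to induce, had the smallest interaction p among the genes named by the rule. Its log2 level was 8.28 and 8.88 with entinostat and ATRA, against 6.66 and 6.96 with entinostat. Without entinostat it was 7.58 and 7.28 with ATRA, against 6.57 and 7.02 with DMSO. With doxorubicin, the levels were 7.99 and 8.38 with both drugs, against 7.04 and 7.13 with entinostat, and then 7.53 and 7.16 with ATRA, against 6.86 and 6.91 with doxorubicin alone. The 4 arrays with both drugs lay above the other 12, without overlap. ATRA raised ELF3 2.71-fold with entinostat (log2 1.44, SE 0.14, adjusted p = 0.000417), while without entinostat the log2 difference was 0.55 (adjusted p = 0.518). The interaction was 0.89 (SE 0.20, 95% interval 0.46 to 1.31, unadjusted p = 0.000523), with an adjusted p of 1.00. It was 1.13 without doxorubicin and 0.64 with it, and 0.45 on the arrays numbered 1 and 1.33 on those numbered 2. Entinostat raised ELF3 1.99-fold with ATRA (adjusted p = 0.000339), and without ATRA its log2 difference was 0.11 (adjusted p = 0.69).

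C9ORF169 (now CYSRT1), a cysteine-rich protein gene, had the next highest interaction among the called genes. Its log2 level was 9.90 and 10.22 with entinostat and ATRA and 7.78 and 7.47 with entinostat. Without entinostat it was 9.04 and 8.70 with ATRA and 7.33 and 6.74 with DMSO. The arrays with both drugs stood highest, those with ATRA alone next, then the entinostat arrays and then DMSO, the last pair of groups by a gap of only 7.47 against 7.33. Doxorubicin arrays were lower in the same order of means, 8.05 and 8.03 with both drugs against 7.33 and 6.77 with entinostat, and 7.59 and 6.98 with ATRA against 7.22 and 6.54 with doxorubicin alone. ATRA raised C9ORF169 3.28-fold with entinostat (log2 1.71, adjusted p = 7.26e-05) and 2.17-fold without it (log2 1.12, adjusted p = 0.00345). The interaction of 0.59 (95% interval 0.17 to 1.02, unadjusted p = 0.00959) was nearly the same without doxorubicin (0.60) and with it (0.59). By replicate number it was less even, 0.38 on the arrays numbered 1 and 0.80 on those numbered 2.

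**Figure D2:**
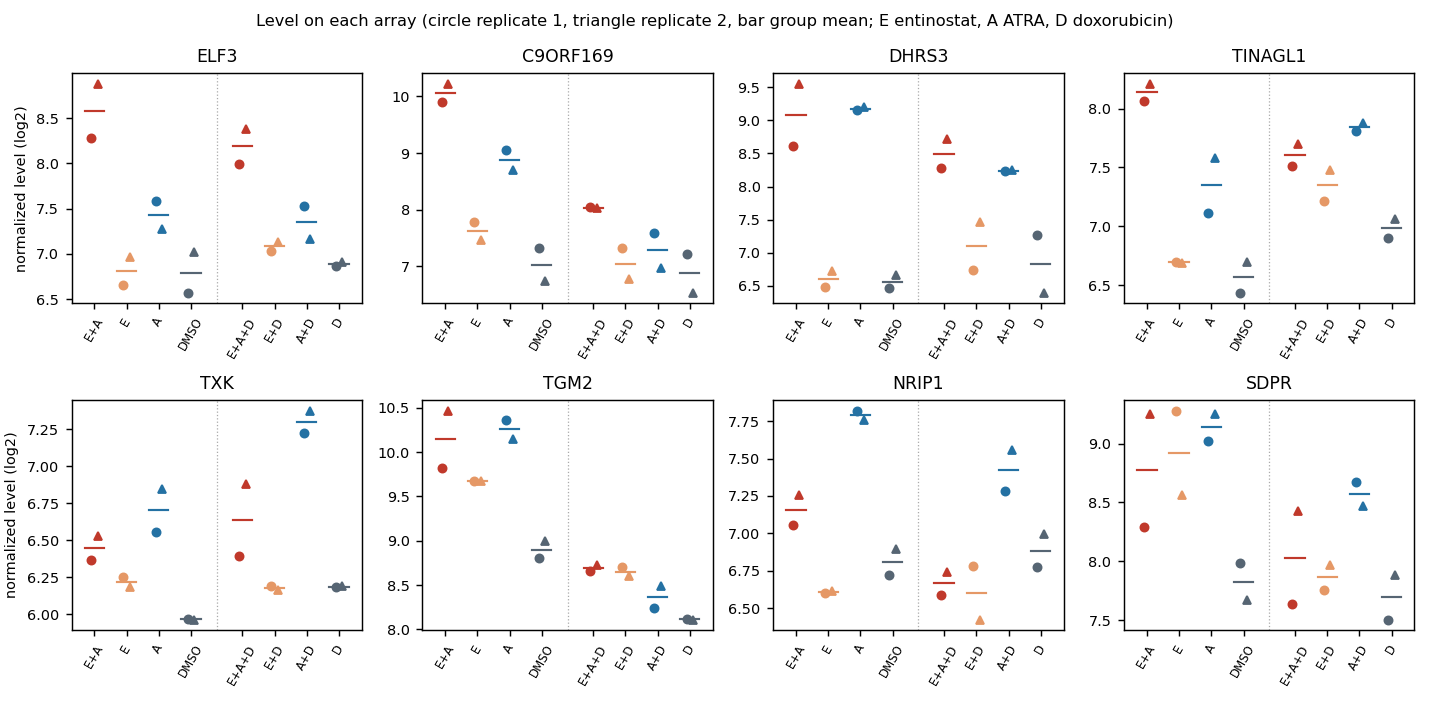
Normalized log2 level of 8 genes on each of the 16 arrays (vertical axis). Groups run from entinostat with ATRA (E+A) to DMSO left of the dotted line and the same with doxorubicin (D) right of it, circles are replicate 1, triangles replicate 2 and bars the mean of both. ELF3 is highest on the 4 arrays with both drugs, DHRS3 is high on all 8 arrays with ATRA, and the SDPR replicates with entinostat and ATRA stand at 8.29 and 9.26.

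Other called genes had a larger ATRA estimate without entinostat. TGM2 encodes the tissue transglutaminase, a long-known target of retinoic acid. It stood at 9.82 and 10.47 with entinostat and ATRA, 9.67 and 9.67 with entinostat, 10.36 and 10.15 with ATRA, and 8.80 and 8.99 with DMSO. The DMSO arrays were the lowest of these 8, and the ATRA arrays overlapped with those of both drugs. With doxorubicin the levels were closer, 8.66 and 8.73 with both drugs, 8.70 and 8.60 with entinostat, 8.24 and 8.49 with ATRA, and 8.12 and 8.11 with doxorubicin alone. ATRA raised TGM2 1.75-fold without entinostat (log2 0.80, adjusted p = 0.0127), and with entinostat the log2 difference was 0.26 (adjusted p = 0.999). The interaction was -0.55 (95% interval -0.91 to -0.19, unadjusted p = 0.00526), -0.89 without doxorubicin and -0.21 with it.

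NRIP1 encodes RIP140, a corepressor that binds liganded nuclear receptors and is itself induced by retinoic acid. It was at 7.06 and 7.26 with entinostat and ATRA, against 6.60 and 6.61 with entinostat. ATRA arrays held 7.82 and 7.76, against 6.72 and 6.89 with DMSO. In doxorubicin-treated cells NRIP1 was at 6.59 and 6.74 with both drugs, against 6.78 and 6.42 with entinostat, and at 7.29 and 7.56 with ATRA, against 6.78 and 6.99 without. The 4 arrays with ATRA and no entinostat were the highest of the 16. ATRA raised NRIP1 1.69-fold without entinostat (log2 0.76, adjusted p = 0.00597), and the interaction was -0.45 (95% interval -0.77 to -0.14, unadjusted p = 0.00756), -0.43 without doxorubicin and -0.48 with it.

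TXK, a Tec-family tyrosine kinase best known from T cells, was also below 0. It was dim: 7 of the 8 arrays with ATRA detected it and 0 of the 8 without. Its level was 6.37 and 6.53 with entinostat and ATRA, against 6.25 and 6.18 with entinostat, and 6.56 and 6.85 with ATRA, against 5.97 and 5.96 with DMSO. With doxorubicin it was 6.39 and 6.88 with both drugs, against 6.19 and 6.17 with entinostat, and 7.23 and 7.38 with ATRA, against 6.18 and 6.19 without. Every array with ATRA lay above every array without it, and the ATRA arrays without entinostat lay above those of both drugs within each doxorubicin setting. TXK was at least 1.74-fold higher with ATRA when entinostat was absent (adjusted p = 0.00109). When entinostat was present the matching bound was 1.26-fold, for a difference that was not called (log2 0.34, 95% interval 0.13 to 0.56, adjusted p = 0.867). Both bounds set the bright arrays against the lowest value among detected genes, or TXK's own value where that was higher. Neither bound allows for the spread between arrays. TXK passed the detection filter only through arrays with ATRA, so the direction of its ATRA effect is not independent of the filter. The interaction was -0.58 (95% interval -0.88 to -0.28, unadjusted p = 0.000923).

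The remaining called genes gave interactions nearer to 0. TINAGL1, a secreted matrix protein gene, rose 1.81-fold with entinostat (log2 0.85, adjusted p = 0.00048) and 1.76-fold without it (log2 0.82, adjusted p = 0.00109), for an interaction of 0.03. That value averaged 0.66 without doxorubicin and -0.59 with it. The difference of those 2 interactions was -1.26 (unadjusted p = 0.000182, adjusted p = 1.00), so it did not pass either. IGFBP6, which binds insulin-like growth factor 2, had ATRA effects of 0.64 with entinostat (adjusted p = 0.185) and 0.98 without it (adjusted p = 0.00345), with an interaction of -0.35 and an interval of -0.73 to 0.03. The carboxypeptidase gene CPA4 had ATRA effects of 0.68 (adjusted p = 0.0851) and 0.74 (adjusted p = 0.0168), with an interaction of -0.05. For CPA4, too, that value averaged unlike settings, 0.35 without doxorubicin and -0.46 with it. Their difference was -0.82 (unadjusted p = 0.0227 in limma) and was not called. SMOX, which oxidises spermine, had 0.45 with entinostat (adjusted p = 0.161) and 0.62 without it (adjusted p = 0.00539). C4BPB, a chain of the complement inhibitor C4b-binding protein, had an interaction of -0.30 (95% interval -0.57 to -0.04). LOC731486 has no current symbol in the tables used here and had an interaction of -0.26 (interval -0.60 to 0.09).

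Because the receptors bind direct repeats of a hexamer near their target genes, the promoters of the called genes were searched for AGGTCA and AGTTCA on both strands. Of the 12 genes, 9 matched a promoter window in RefSeq (GRCh38.p14), running from 250 bases before to 50 bases after the start of the gene. The window of CPA4 held 1 such half-site, an AGGTCA on the opposite strand, 175 bases before the start, and the other 8 windows held neither hexamer. Among all 35116 windows, 22.63% held at least 1 half-site of these 2 forms, and 42 (0.1196%) held 2 in the same orientation 1 to 5 bases apart. Other forms of the hexamer were not searched for, so these counts cover only the 2 named. A match is a description of letters and no evidence of binding, and its absence speaks only of this window. The 250 bases before the start are shown, 5′ to 3′ on the strand of the gene, for CPA4, for DHRS3, the gene with the largest ATRA effects, and for ELF3, the gene with the highest interaction. Capitals mark the half-site. They lie at chr7:130292911-130293160 (plus strand) for CPA4, chr1:12618211-12618460 (minus strand) for DHRS3 and chr1:202010337-202010586 (plus strand) for ELF3.
CPA4: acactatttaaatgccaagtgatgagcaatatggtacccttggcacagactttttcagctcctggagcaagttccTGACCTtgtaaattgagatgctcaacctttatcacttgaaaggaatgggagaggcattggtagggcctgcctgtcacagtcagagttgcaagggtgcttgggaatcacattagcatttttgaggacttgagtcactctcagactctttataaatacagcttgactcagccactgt
DHRS3: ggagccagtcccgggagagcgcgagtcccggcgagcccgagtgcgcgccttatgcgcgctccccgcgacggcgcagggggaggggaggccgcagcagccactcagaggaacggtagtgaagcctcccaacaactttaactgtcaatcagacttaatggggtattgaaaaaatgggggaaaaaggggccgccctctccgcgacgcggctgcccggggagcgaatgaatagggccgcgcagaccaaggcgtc
ELF3: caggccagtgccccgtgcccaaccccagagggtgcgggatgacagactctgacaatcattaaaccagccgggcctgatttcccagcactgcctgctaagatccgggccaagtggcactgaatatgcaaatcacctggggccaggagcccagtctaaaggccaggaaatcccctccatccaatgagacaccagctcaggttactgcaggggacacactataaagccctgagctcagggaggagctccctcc

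Genes named for the interaction were those with the same sign in both doxorubicin settings and on both replicate numbers, ordered by unadjusted p because none was called. Of all tested genes 5735 had the same sign in these 4, and 8923 had a name that is not provisional and a mean signal of at least 50 in a group. Both held for 2985 genes, 1524 above 0 and 1461 below. Above 0 the 12 named genes ran from 0.40 to 0.89. Besides ELF3 and C9ORF169 they included CDKN2AIPNL (0.65, unadjusted p = 0.00762), RPP14, a subunit gene of ribonuclease P (0.55, unadjusted p = 0.0017), and INPPL1, the SHIP2 lipid phosphatase gene (0.47, unadjusted p = 0.00744). RPP14 was at 6.80 and 6.77 with entinostat, ATRA and doxorubicin, against 6.01 and 6.48 with entinostat and doxorubicin. It averaged 6.68 ± 0.13 with ATRA and doxorubicin and 7.07 ± 0.11 with doxorubicin alone (SD, n = 2 each). The interaction of RPP14 was 0.16 without doxorubicin and 0.93 with it. HEXDC (now HEXD), a hexosaminidase gene, SLC17A9, which loads nucleotides into vesicles, the calpain gene CAPN2, FBXO42, SPSB2, C21ORF58 and AMMECR1L lay between 0.40 and 0.53. For all of these but ELF3 and C9ORF169, the ATRA effect was at most 0.38 with entinostat and between -0.45 and -0.16 without it, and none of those effects was called.

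Below 0 the 12 named genes ran from -1.09 to -0.40. SDPR (now CAVIN2), a structural protein gene of caveolae, had the largest value, -1.09 (SE 0.30, 95% interval -1.72 to -0.46, unadjusted p = 0.00228). Its level was 8.29 and 9.26 with entinostat and ATRA, 9.28 and 8.56 with entinostat, 9.02 and 9.26 with ATRA, and 7.98 and 7.67 with DMSO. The DMSO arrays were the lowest and the other 3 groups overlapped. With doxorubicin it was 7.63 and 8.43 with both drugs, 7.76 and 7.97 with entinostat, 8.68 and 8.47 with ATRA, and 7.50 and 7.88 with doxorubicin alone. The interaction of SDPR was -1.67 on the arrays numbered 1 and -0.51 on those numbered 2. FAM84B (now LRATD2) had an interaction of -0.57 (unadjusted p = 0.00157): entinostat raised it 1.37-fold with ATRA (adjusted p = 0.00821) and 2.03-fold without ATRA (adjusted p = 1.49e-05). HEYL, a Notch target gene, had -0.62 (unadjusted p = 0.00603), and entinostat raised it 1.51-fold with ATRA (adjusted p = 0.00933) and at least 2.29-fold without ATRA (adjusted p = 3.79e-05), where the 4 arrays without entinostat did not detect it. PSMD11, a proteasome subunit gene, had -0.40 (unadjusted p = 0.0034), and the cyclin gene CCNJ -0.50 (unadjusted p = 0.00383). SLC45A1, a sugar transporter gene, VASP, an actin regulator, SKA1, a gene of the spindle and kinetochore, and MAP7D1 lay between -0.63 and -0.47. SLC45A1 was detected on only 2 arrays, 1 with entinostat alone and 1 with ATRA and doxorubicin. Its highest group mean signal, 62.75, was with entinostat and doxorubicin. Each of these groups enters the interaction with a minus sign. The sign for SLC45A1 is thus not independent of the detection filter and the signal rule.

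**Figure D3:**
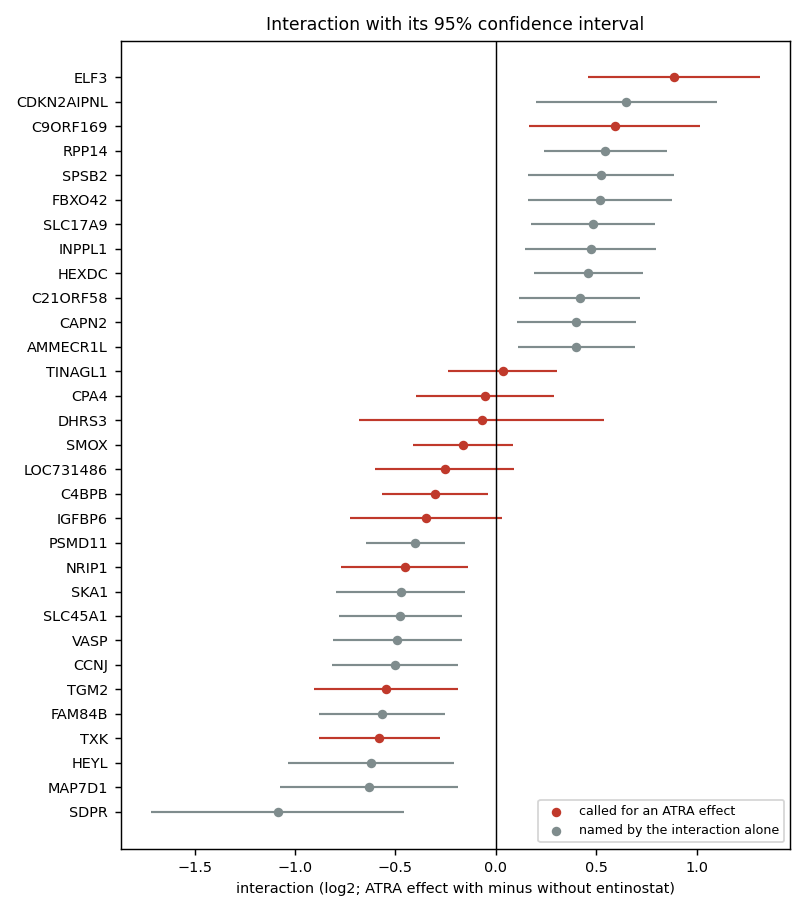
Entinostat by ATRA interaction (horizontal axis, log2) of the genes called for an ATRA effect (red) and of those named by the interaction alone (grey), with 95% confidence intervals from the fit. ELF3 stands at 0.89 and SDPR at -1.09, and the intervals of TINAGL1, CPA4, DHRS3, SMOX, LOC731486 and IGFBP6 cross 0.

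The genes of the retinoid pathway were then read by role. Of 22 listed genes that make, carry or degrade retinoids, 14 were tested, 0 were called for the interaction and 5 were above 0, with a median of -0.07 against 0.00 over all genes. CRABP2, which carries retinoic acid to the receptor, had ATRA effects of 0.24 with entinostat (adjusted p = 0.999) and 0.38 without it (adjusted p = 0.573). Its interaction was -0.14 (95% interval -0.44 to 0.16). CYP26B1, which degrades retinoic acid, had an interaction of 0.22 (interval -0.13 to 0.56), while CYP26A1, detected on 0 arrays, was left out of the test. RDH5, a retinol dehydrogenase gene, had 0.37 (interval 0.01 to 0.73, unadjusted p = 0.0445). LRAT, which esterifies retinol, and the carrier gene FABP5 both had -0.19. Apart from DHRS3, no gene of this list was called for ATRA in either setting.

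Among receptors and coregulators, 19 of 22 listed genes were tested, with a median interaction of -0.08 and 5 above 0. RARA had an interaction of -0.02 (interval -0.28 to 0.24). RXRA had -0.37, with a wide interval of -0.96 to 0.21. RARB, itself a classical target of its own receptor, stood near background and was detected on 3 of 16 arrays, all 3 of them with entinostat and ATRA. Its level was 6.36 and 6.25 with entinostat and ATRA, against 6.11 and 5.97 with entinostat, and 6.06 and 6.09 with ATRA, against 5.89 and 6.03 with DMSO. With doxorubicin, RARB was at 6.30 and 6.24 with both drugs and at 5.99 to 6.17 on the other 6 arrays. The 4 arrays with both drugs were the highest of the 16, and the interaction was 0.23 (interval -0.02 to 0.47). RARB passed the detection filter only through arrays with both drugs. Their rank is thus not independent of the filter and is no support for an interaction. The corepressor gene NCOR1 had -0.11 (interval -0.36 to 0.14), and the coactivator genes NCOA3 and EP300 had -0.08 and 0.18. NRIP1 was the only gene of this list called for ATRA. RARG, detected on 0 arrays, was left out of the test.

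Of 42 listed genes known to be induced by retinoic acid, 33 were tested. With entinostat 25 of the 33 had ATRA effects above 0 and 1 was called, ELF3. Without entinostat 27 were above 0 and 2 were called, TGM2 and IGFBP6. The medians were 0.13 with entinostat and 0.12 without it. The median interaction was -0.07, with 12 of 33 above 0. RARRES3 (now PLAAT4), a growth-suppressing phospholipase gene named for its retinoid response, had ATRA effects of 0.68 with entinostat (adjusted p = 0.194) and 0.63 without it (adjusted p = 0.262). GPRC5A, an orphan receptor gene induced by retinoic acid, had 0.51 (adjusted p = 0.374) and 0.61 (adjusted p = 0.104). Their interactions were 0.05 (interval -0.36 to 0.46) and -0.10 (interval -0.45 to 0.25). NAV2, a cytoskeletal gene first found through retinoic acid, had an interaction of -0.22 (interval -0.49 to 0.06).

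The histone deacetylase complexes, the target of entinostat, were read next. Of 24 listed members 22 were tested and 0 called, 11 above 0, with a median of 0.00. HDAC1, HDAC2, HDAC3 and HDAC8 had interactions of -0.06, -0.09, 0.01 and 0.12, and the widest of their intervals ran from -0.18 to 0.42. HDAC3 mRNA was at 10.02 and 9.86 with entinostat and ATRA, 9.69 and 9.87 with entinostat, 9.32 and 9.33 with ATRA, and 9.28 and 9.52 with DMSO. The 4 arrays with entinostat were above the 4 without. Entinostat raised HDAC3 1.38-fold with ATRA (adjusted p = 0.00279) and 1.37-fold without ATRA (adjusted p = 0.00307). The dim SIN3 subunit gene SUDS3 had 0.43 (unadjusted p = 0.0232) with a mean signal of 8.56.

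The interaction can also be read as the entinostat effect with ATRA minus the entinostat effect without it, where far more genes changed. Limma called 2437 genes (14.2%) for entinostat with ATRA, 1274 higher and 1163 lower, and 2584 genes (15.1%) without ATRA, 1365 higher and 1219 lower. They shared 1684 genes, 69.1% of the first set and 65.2% of the second, and all 1684 ran the same way. Of the 3337 genes called in either, 3303 had an interaction interval within 1 log2 unit of 0, and 207 had an unadjusted interaction p below 0.05. The calls moved with single arrays, each left out in turn. With ATRA they ran down to 1248 without ATRA with doxorubicin replicate 1, 1459 without ATRA replicate 2, 1494 without replicate 1 of entinostat with ATRA, 1537 without ATRA replicate 1 and 1615 without replicate 1 of all 3 drugs. Without ATRA they ran down to 1375 without entinostat replicate 1, 1646 without DMSO replicate 1 and 1703 without DMSO replicate 2. Over disjoint arrays and over all genes, taken as a description, the entinostat effects with and without ATRA had r = 0.86. The ATRA effects with and without entinostat had r = 0.24.

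Several genes rose with entinostat in both settings and had interactions near 0. CGN, the gene of cingulin at tight junctions, was at 9.19 and 8.81 with entinostat and ATRA, 9.06 and 8.83 with entinostat, 6.56 and 6.39 with ATRA, and 6.58 and 6.59 with DMSO. It parted by entinostat and overlapped by ATRA. Entinostat raised CGN 4.44-fold with ATRA (adjusted p = 6.21e-09) and 4.37-fold without ATRA (adjusted p = 5.14e-09), and the interaction was 0.02 (interval -0.27 to 0.31). CPA4 rose 4.14-fold with ATRA (adjusted p = 7.5e-08) and 4.30-fold without it (adjusted p = 5.18e-08). SYT11, a synaptotagmin gene, rose 6.47-fold with ATRA (adjusted p = 1.76e-07) and 7.15-fold without it (adjusted p = 9.02e-08). CDKN1A, which encodes the cell cycle inhibitor p21, rose 2.48-fold (adjusted p = 5.03e-05) and 2.21-fold (adjusted p = 0.000131), although its detection p-value was below 0.05 on only 4 arrays, at signals of 357 to 3434. These folds average over doxorubicin, and the rise lay mostly on the arrays without it. There the mean log2 level of CDKN1A was 11.23 with both drugs against 8.81 with ATRA, and 11.29 with entinostat against 9.28 with DMSO. With doxorubicin as well, the same pairs were 11.59 against 11.39 and 11.73 against 11.45. The claudin gene CLDN1 had an interaction of -0.21 (interval -0.55 to 0.12), and CLDN7 -0.12 (interval -0.55 to 0.32). Of 28 tested genes known to be induced by histone deacetylase inhibitors, 16 rose and 0 fell with ATRA, and 17 rose and 0 fell without it, against 7.44% and 7.97% of all genes called higher. Their median interaction was -0.18, with 5 of 28 above 0 and 0 with an unadjusted p below 0.05. That median was -0.27 on the arrays numbered 1 and -0.02 on those numbered 2, and -0.06 with the background estimated from the detection p-values.

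Among the 19 lists, genes of G2/M and mitosis had the median farthest from 0. Of 32 of them tested, 2 had an interaction above 0, the median was -0.24, and 4 had an unadjusted p below 0.05, all below 0, with 0 called. The mitotic cyclin gene CCNB1 had -0.71 (unadjusted p = 0.027), the kinesin gene KIF11 -0.42 (unadjusted p = 0.0119) and the kinase gene AURKB -0.44 (unadjusted p = 0.0207). CCNB1 was at 8.17 and 9.06 with entinostat and ATRA, 10.01 and 9.45 with entinostat, 10.25 and 9.41 with ATRA, and 10.37 and 9.53 with DMSO. Both arrays with the pair were the lowest of these 8, replicate 1 by the wider margin. Entinostat lowered 11 of the 32 genes with ATRA and 4 without it, and raised 0 in either, against 6.79% and 7.12% of all genes called lower. The list rested on 1 array: the median level of its genes was 9.04 on replicate 1 of entinostat with ATRA and 9.59 on replicate 2, while replicate 1 stood at 10.03 with entinostat, 10.04 with ATRA and 10.01 with DMSO. The median interaction without doxorubicin was -0.91 on replicate 1 and 0.01 on replicate 2. With doxorubicin it was -0.22 on replicate 1 and -0.01 on replicate 2. Without replicate 1 of entinostat with ATRA the pooled median was -0.07 and 3 of the 32 genes were called lower by entinostat with ATRA. Without replicate 2 of that group they were -0.41 and 19. Less RNA per cell and fewer dividing cells cannot be told apart in bulk samples.

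**Figure D4:**
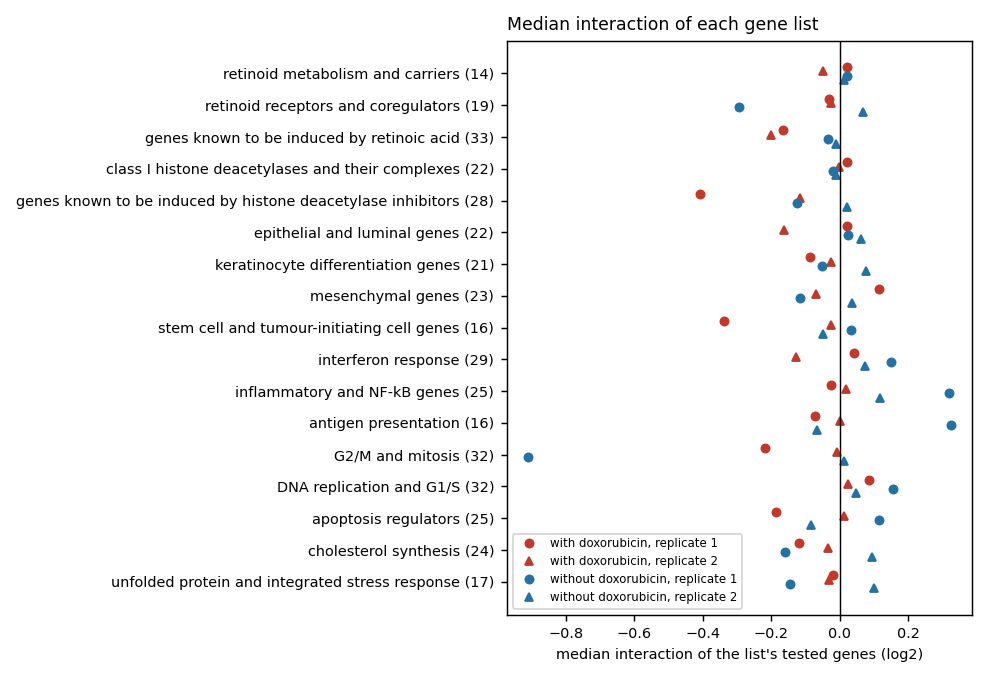
Median interaction (horizontal axis, log2) of the tested genes of each list, in the number given in brackets, by doxorubicin and replicate number. The G2/M list stands at -0.91 on replicate 1 without doxorubicin and between -0.22 and 0.01 on the other 3.

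The lists not yet described had medians between -0.07 and 0.09, and several changed sign when 1 array was left out. Of 32 DNA replication and G1/S genes, 27 were above 0 (median 0.09, 0 with an unadjusted p below 0.05), and the median was -0.0045 without doxorubicin replicate 1 and 0.19 without doxorubicin replicate 2. Inflammatory and NF-kB genes had a median of 0.06. It was -0.08 with doxorubicin (9 of 25 above 0) and 0.21 without it (21 of 25), and -0.04 without replicate 1 of entinostat with ATRA. Their genes of smallest p were the chemokine genes CXCL3 at 0.42 (unadjusted p = 0.00607) and CCL20 at 0.53 (unadjusted p = 0.0225) above 0 and the collagenase gene MMP1 at -0.42 (unadjusted p = 0.023) below. CCL20 was at least 1.65-fold higher with entinostat where ATRA was present (adjusted p = 0.00169), the 4 ATRA arrays without entinostat not detecting it, and without ATRA its log2 difference was 0.31 (adjusted p = 0.191). Of 29 interferon-response genes 20 were above 0, with a median of 0.07, which was -0.05 without doxorubicin replicate 1 and 0.12 without doxorubicin replicate 2. Epithelial and luminal genes had a median of -0.02, mesenchymal genes -0.02, keratinocyte differentiation genes -0.05, and stem cell and tumour-initiating cell genes -0.07. Of the 8 markers of other cell types that were tested, VWF (-0.39, unadjusted p = 0.0295) and CD14 (-0.37, unadjusted p = 0.0455) had an unadjusted p below 0.05.

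Doxorubicin split the arrays into 2 disjoint sets, each with its own estimate of the interaction. Both estimates came from the same fit, with a shared error and replicate block. Limma called 0 genes (0%) with doxorubicin and 0 (0%) without it. At an unadjusted p below 0.05 there were 512 with doxorubicin (2.99%), 254 above 0 (1.48%) and 258 below (1.51%), and 422 without it (2.46%), 210 above 0 (1.23%) and 212 below (1.24%). For the difference of these estimates, the 3-drug term, limma also called 0 (0%), with 476 genes (2.78%) at an unadjusted p below 0.05, 220 above 0 (1.28%) and 256 below (1.49%). Across genes, as a description, the estimates had r = -0.02, and 49.4% shared their sign. Over the arrays numbered 1 and those numbered 2 the correlation was 0.03, with 50.3% sharing their sign. ELF3 and C9ORF169 lay above 0 in both settings, and TXK, SDPR, TGM2 and HEYL below 0 in both, as the naming rule required of those chosen by the interaction.

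**Figure D5:**
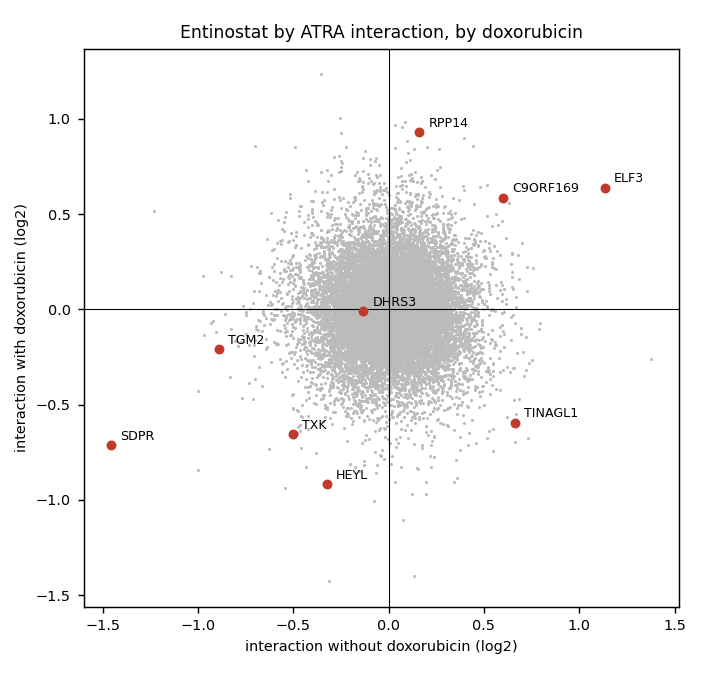
Interaction of each tested gene with doxorubicin (vertical axis, log2) and without it (horizontal axis, log2). Grey points are all genes and red points the named ones. The cloud is round (r = -0.02), with ELF3 and C9ORF169 at upper right, TXK, SDPR and HEYL at lower left, and TINAGL1 at 0.66 without doxorubicin and -0.59 with it.

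A single array could make calls. Without doxorubicin replicate 2, limma called 4 genes for the pooled interaction, CST1 (-1.63, adjusted p = 0.00124), CST4 (-1.04), IL11 (1.02) and IL24 (1.26), each of the last 3 at an adjusted p of 0.0444. It then also called 13 genes for the interaction with doxorubicin. Without doxorubicin replicate 1 it called 0. These genes are outside the naming rule and were picked out after their values were seen. The cystatin gene CST1 was at 7.61 on doxorubicin replicate 1 and 11.86 on replicate 2, with all other arrays between 9.51 and 11.87. IL24, a cytokine gene, was at 10.67 and 6.86 on the same arrays, with all others between 6.23 and 7.78. Doxorubicin replicate 1 thus stood outside the range of the other 15 arrays for both, and with both replicates the interactions were -0.87 (unadjusted p = 0.133) and 0.44 (unadjusted p = 0.469). The part of that array in those calls was not tested beyond leaving it out.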

How the data were processed

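Total RNA of MDA-MB-231 cells was labelled with biotin and hybridised to Illumina BeadChips. The authors deposited an intensity and a detection p-value per gene name and array. The intensities were already background-subtracted, since 27.5% to 28.2% of values per array were below 0. They also had a shared distribution. No source used here states how probes were combined into genes. The authors also deposited a log2 table, and limma, with no version, is the tool in the submitters' processing notes. The detection p-value is high for some bright genes, so that 117 of 7142 genes with a mean signal above 100 failed the filter below and were not tested.

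With limma 3.58.1 in R 4.3.3, background was modelled by normexp with an offset of 50, arrays were normalized by quantiles, and log2 was taken. Fold changes of dim genes are understated by the offset. Genes with a detection p-value below 0.05 on at least 2 arrays were kept, and 92 spike-ins and 3270 unnamed clusters were left out. One linear model of 8 group means with the replicate number as a block was fitted to all 17126 genes, with 7 residual degrees of freedom. Contrasts were tested with eBayes, p-values were two-sided and Benjamini-Hochberg adjusted over all genes, and a gene was called at an adjusted p below 0.05. The block comes from the definition of the comparison. In the check of pairing, same-numbered arrays of 28 pairs of groups deviated from their group means with correlations of 0.0193 to 0.424 (median 0.220, 26 of 28 over 0.1). Where every array of a group was below detection, folds are lower bounds, which do not allow for the spread between arrays. Scripts were tested on simulated data.

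Named for the interaction were, per direction, 12 genes with a name that is not provisional, a group mean signal of at least 50 and the same sign with and without doxorubicin and on both replicate numbers, by smallest p. Genes called for ATRA and members of the retinoid and histone deacetylase lists were also named. The comparison and the gene lists were chosen with earlier results of these data known, so none of them is independent support. Symbols were matched to RefSeq, with 10919 current, 2049 older and 4158 unmatched names.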

Additional observations from a re-analysis of the deposited data

How the results depend on the processing

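Limma called 0 genes for the pooled interaction under every alternative tried except 1, which left out doxorubicin replicate 2, so the counts with an array left out ran from 0 to 4. The other alternatives were no replicate block, the block as a random effect, an offset of 16, normexp from the detection p-values, the authors' log2 table, no detection filter, a filter on signal, no quantile step, eBayes with trend and robust settings, array weights and a model without the 3-drug term. With an array left out, a lone array was assumed to vary like the other groups. The interaction with doxorubicin then had 0 to 13 calls, that without it 0 to 0, and the 3-drug term 0 to 4. Without the replicate block, 7 genes were called for ATRA without entinostat, against 11 with it, and every interaction estimate was the same, since only its error changed. With normexp from the detection p-values there were 2 calls for ATRA with entinostat, 0 for ATRA without it, and 1600 for entinostat with ATRA, where the cause was not tested. With an array left out, ATRA had 4 to 11 calls with entinostat and 6 to 44 without, and entinostat had 1248 to 2878 with ATRA and 1375 to 2897 without. The interaction of ELF3 ran from 0.33 to 1.03, with unadjusted p of 0.000112 to 0.00697, and was called under none of the 27 alternatives. Values near 0 turned sign under some of the 27: CGN and RARRES3 under 8, CPA4 under 5, and DHRS3 and TINAGL1 under 4. DHRS3 was at -0.38 without doxorubicin replicate 1 and at 0.24 without doxorubicin replicate 2. CPA4 was at 0.56 with normexp from the detection p-values, far from its main value of -0.05. The median of the G2/M list stayed below 0 under all 27, between -0.41 and -0.07.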

Other observations

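The lists not described above held 0 calls for the interaction. Cholesterol synthesis genes had a median of -0.06, with 7 of 24 above 0, and 0 had an unadjusted p below 0.05. Apoptosis regulators had a median of -0.02 (10 of 25 above 0) and antigen presentation genes 0.06 (12 of 16 above 0; -0.01 without replicate 1 of entinostat with ATRA), again with 0 at an unadjusted p below 0.05. Of 17 tested genes of the unfolded protein and integrated stress response, with a median of 0.03 that turned below 0 under 10 of 27 alternatives, HSPA5 was the 1 gene with an unadjusted p below 0.05. HSPA5 encodes the chaperone BiP of the endoplasmic reticulum, and its interaction was -0.49 (95% interval -0.94 to -0.03, unadjusted p = 0.0379 in limma). Entinostat raised HSPA5 by 0.77 on the log2 scale without ATRA (adjusted p = 0.00323), and with ATRA the difference was 0.28 (adjusted p = 0.25).

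A pair of genes were picked out after their values were seen. PTGES, the prostaglandin E synthase gene, was at 9.82 and 10.07 with entinostat and ATRA, against 8.21 and 7.68 with entinostat, and at 9.87 and 9.50 with ATRA, against 7.73 and 7.41 with DMSO. Among these arrays, all without doxorubicin, both ATRA groups lay above the others. With doxorubicin PTGES was at 8.37 and 8.81 with both drugs, against 8.01 and 8.27 with entinostat. It was at 8.20 and 8.54 with ATRA and doxorubicin, against 8.53 and 6.95 with doxorubicin alone, so arrays with and without ATRA overlapped there. The ATRA differences over all arrays, 1.22 with entinostat (limma adjusted p = 0.185) and 1.37 without it (adjusted p = 0.0668), missed the threshold. The interaction of PTGES was -0.15, with an interval of -0.88 to 0.58. TIMP3, an inhibitor of metalloproteinases, was at 8.42 and 10.39 with entinostat and ATRA, 8.75 and 8.72 with entinostat, 9.82 and 9.95 with ATRA, and 8.35 and 8.08 with DMSO. One replicate with both drugs lay next to DMSO and the other above all 7 remaining arrays, and the interaction was -0.92 (interval -1.89 to 0.05, unadjusted p = 0.0608).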
